A study of Schizosaccharomyces pombe with 2 samples.

Results

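The ribosomal DNA (rDNA) at the ends of chromosome III of the fission yeast Schizosaccharomyces pombe was examined through 77 array tiles, of 41240 tiles on the chromosomes. A tile is a probe named by its chromosome and position. The members were all tiles on chromosome III named below position 25000, and all those from the tile named 2441100 on, so that 59 lay at the left end and 18 at the right end. The rule uses tile positions and no measured value. At a spacing of 300 bp these stretches have room for 84 tiles at the left end and 43 at the right, so the right end was covered much more thinly.

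BrdU, a thymidine analogue that is built into newly made DNA, was followed in sap1-1 cells and in wild-type cells, with 1 two-colour array for each strain. Sap1 is an essential DNA-binding protein of fission yeast. Both strains were of 972h background and carried cdc10-v50, a conditional allele of a subunit of the transcription factor for entry into S phase. Both also carried Pnmt1-TK, a thymidine kinase gene under the nmt1 promoter, and Padh1-hENT, a nucleoside transporter gene under the adh1 promoter, which let the cells take up and use BrdU. The strain called wild-type is therefore wild type for sap1, not for cdc10 or for these modules. Both cultures were held at 35 °C for 4 h and released at 26 °C with 10 mM hydroxyurea and 200 µM BrdU, then stopped with 0.1% sodium azide. Hydroxyurea drains the supply of deoxynucleotides, and BrdU is then built in mainly near the origins that fire first. DNA precipitated with an anti-BrdU antibody was labelled with Cy5. DNA of the whole-cell extract was labelled with Cy3 and served as input.

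The rDNA of fission yeast is a long tandem array at both ends of chromosome III. Each repeat encodes the 18S, 5.8S and 28S ribosomal RNAs in 1 transcript, and the 5S genes lie elsewhere. The intergenic spacer between the end of 28S and the start of the next 18S is known to hold the replication origin ars3001. Next to the 28S 3′ end it also holds replication fork barriers, which stop forks that would run against transcription. Sap1 is known to bind the barrier Ter1, and Reb1 is known to bind the barriers Ter2 and Ter3.

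In the ASM294v3 assembly of chromosome III, 11 rRNA genes lie in the 2 stretches, whole or in part. At the left end the complete 28S genes SPRRNA.47 (III:6057-9541) and SPRRNA.48 (III:16927-20411) and the complete 18S genes SPRRNA.43 (III:10419-12260) and SPRRNA.44 (III:21289-23130) are on the minus strand. At the right end the 18S gene SPRRNA.46 (III:2440994-2442835), the 5.8S gene SPRRNA.52 (III:2443248-2443412) and the 28S gene SPRRNA.49 (III:2443713-2447197) are on the plus strand. Transcription therefore runs towards the telomere at both ends. The repeat is 10870 bp long at the left end and 10889 bp at the right. The 18S gene is 1842 bp long and the 28S gene 3485 bp. The assembly marks no external transcribed spacers, so "spacer" here means the whole stretch from the 28S end to the next 18S start, 4666 bp at the left and 4685 bp at the right. The 2 complete left spacers of the assembly are identical (0 edits), and the right one differs from them by 42 edits. The tiles thus repeat the same sequences, and each spot reads every repeat copy in the cell that matches its probe. Left and right tiles are not separate measurements of the 2 chromosome ends, and tiles are not replicates.

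Which build numbered the tiles is not given here, and the probe sequences were not used. Tiles were placed in the assembly by sliding their positions against GC content on the chromosome III arms, where input signal follows GC. The best offset was +25 bp at the left arm (2876 tiles) and -925 bp at the right (3744 tiles). The rDNA tiles alone gave -75 and -825 bp. Distances below are from the centre of a 300 bp tile window. The window is placed to about 100 bp, and where the probe lies within its window is not known here. By this placement 33 members lay in the spacer, 16 in 18S, 19 in 28S and 7 in 5.8S with the internal transcribed spacers. The last 2, at 24600 and 24900, lay beyond the last repeat of the assembly.

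The sequences that frame the spacer are shown because the BrdU signal changes across them. They are read in the direction of rRNA transcription, and capitals mark rRNA gene sequence at the 28S 3′ end and at the 18S 5′ end.
28S end, left, chrIII:6027-6086, minus strand: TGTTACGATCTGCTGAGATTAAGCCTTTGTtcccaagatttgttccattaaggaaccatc
18S start, left, chrIII:1361-1420, minus strand: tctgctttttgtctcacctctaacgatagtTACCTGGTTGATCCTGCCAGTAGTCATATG
The same 60 bases stand at the right end, at chrIII:2447168-2447227 and chrIII:2451853-2451912 on the plus strand.

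The motif GGTAAGGGT, the core of the known Reb1 site, was searched on both strands. It was found 2 times in each complete spacer, both times on the strand of the rRNA genes, and 0 times on the other strand. Both copies are shown with 20 bases on each side and the motif in capitals, because they mark the 28S-proximal region where fork barriers are known.
Reb1 motif 1, left, chrIII:5733-5781, minus strand: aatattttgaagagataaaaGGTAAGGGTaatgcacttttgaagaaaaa
Reb1 motif 2, left, chrIII:5550-5598, minus strand: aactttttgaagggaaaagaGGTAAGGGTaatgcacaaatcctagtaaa
They begin 296 and 479 bp after the 28S end in the left spacer, and 306 and 489 bp after it in the right spacer, with the same 49 bases. The motif has 75 matches in the 3 chromosomes, and 0.172% of all 300-base windows (72 of 41905) hold it. A match is a description of the letters and not evidence of binding in these cells.

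The most AT-rich 300 bases of the spacer had 20.3% GC in the left spacer, against 30.9% for the whole spacer. Fission yeast origins are AT-rich as a class. The left stretch is shown because the window of the tile named 4800, whose ratio was the highest of all members in sap1-1, covers most of it. Capitals mark its 10 runs of 8 or more A or T.
AT-rich stretch, left, chrIII:4865-5164, minus strand: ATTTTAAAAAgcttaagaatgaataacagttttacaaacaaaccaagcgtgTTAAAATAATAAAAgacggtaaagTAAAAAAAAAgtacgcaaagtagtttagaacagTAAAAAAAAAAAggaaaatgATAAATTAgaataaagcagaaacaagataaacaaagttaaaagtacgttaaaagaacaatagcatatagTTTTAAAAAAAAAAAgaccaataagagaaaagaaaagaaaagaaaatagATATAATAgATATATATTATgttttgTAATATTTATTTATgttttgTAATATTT
It begins 893 bp after the 28S end.

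In all values below, "ratio" is the log2 of Cy5 over Cy3, and "Cy3" and "Cy5" are the log2 of 1 channel, each minus its median over all chromosome tiles of that array. A difference is sap1-1 minus wild-type. With 1 array for each strain there is no replicate and no test, and the figures describe these 2 arrays. A difference of 1, which is 2-fold, served as the mark for single tiles. The overall median difference in ratio was -0.12 over all chromosome tiles. None of the 77 members was flagged or saturated on either array (0 tiles), and all were well above background in both channels.

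The rDNA showed 1 pattern of BrdU signal, repeated along the tiled copies, on both arrays. The ratio was high in the intergenic spacer and low over the 18S and 28S genes. Spacer tiles had a median ratio of 1.49 in sap1-1 (range -0.02 to 3.25) and 2.48 in wild-type (0.77 to 3.54; 33 tiles). Tiles in 18S and 28S had a median of -1.50 in sap1-1 (-2.49 to 0.31) and -0.34 in wild-type (-1.66 to 1.14; 35 tiles). The spacer thus stood above the genes by 2.99 in sap1-1 and by 2.82 in wild-type. A ratio of 1 or more was reached by 28 of the 33 spacer tiles in sap1-1 and by 31 in wild-type. In 18S and 28S it was reached by 0 of 35 tiles in sap1-1 and by 1 in wild-type. Among all chromosome tiles 23.1% reached it in sap1-1 and 24.6% in wild-type. The 7 tiles of 5.8S and the internal transcribed spacers were between at the median but varied widely. They had 0.73 in sap1-1 (-1.45 to 1.43) and 1.19 in wild-type (-0.83 to 1.475).

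Spacer tiles were also richer in AT than gene tiles, with median GC of 31.3% against 45.3%, and signals vary with GC across the arms. The ratio and each channel were fitted separately on GC over 7348 chromosome III arm tiles. After the fit of the ratio, spacer medians were 0.99 in sap1-1 and 1.91 in wild-type. Gene medians were then -0.98 in sap1-1 and 0.07 in wild-type. The step between spacer and genes became 1.97 in sap1-1 and 1.84 in wild-type, so about 1 log2 unit of it went with GC content. In Cy5 alone the step was 1.36 in sap1-1 and 0.66 in wild-type, since the gene tiles were far brighter than the spacer tiles in the input.

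In the complete left spacers the ratio climbed steeply after the 28S end and was lower again, though not tile by tile, towards the next 18S gene. In the first left spacer the tiles centred 182, 482 and 782 bp after the 28S end had ratios of 0.31, 1.90 and 2.56 in sap1-1, against 1.09, 2.48 and 3.42 in wild-type. The tiles at 1082 and 1382 bp had 3.25 and 2.10 in sap1-1, against 3.49 and 3.54 in wild-type. The 2 Reb1 motifs lie between the tile centres at 182 and 782 bp, and most of the AT-rich stretch lies in the window of the tile at 1082 bp. Beyond them, at 1682, 1982, 2282, 2582 and 2882 bp, the ratios were 1.93, 1.66, 1.69, 2.76 and 1.28 in sap1-1, against 3.0, 3.07, 2.79, 3.32 and 2.38 in wild-type. The last tiles before 18S, at 4082 and 4382 bp, had 1.11 and 1.49 in sap1-1, against 1.96 and 2.04 in wild-type. The order of the tiles was similar on both arrays, but the wild-type crest of the ratio was broader: its 5 tiles from 782 to 1982 bp lay between 3.0 and 3.54. In Cy5 alone these 5 tiles had 5.36, 4.93, 5.89, 4.85 and 5.29 in sap1-1. In wild-type they had 5.68, 4.57, 6.23, 5.04 and 5.77, so the tile at 1382 bp was highest on both arrays. The tile at 1082 bp, highest by ratio in sap1-1, had the lowest Cy3 of this spacer on both arrays (1.66 in sap1-1 and 1.05 in wild-type).

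The second left spacer, with 10 tiles, repeated that course. At 252, 552 and 852 bp after 28S the ratios were 0.27, 1.97 and 2.33 in sap1-1, against 0.77, 2.52 and 2.79 in wild-type. At 2052, 2352, 3252 and 3552 bp they were 1.48, 1.38, 1.54 and 1.40 in sap1-1, against 2.82, 2.46, 2.79 and 2.27 in wild-type. At 3852, 4152 and 4452 bp they were 1.32, 1.37 and 1.48 in sap1-1, against 2.26, 2.22 and 1.96 in wild-type. No tile of this copy is centred between 852 and 2052 bp, where the first copy had its crest. In the incomplete innermost left spacer the tiles at 4222 and 4522 bp had 1.45 and 0.67 in sap1-1, against 2.08 and 1.43 in wild-type.

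The right spacer had 7 tiles in its complete copy. At 328, 628 and 928 bp after 28S the ratios were 2.18, 1.96 and 2.33 in sap1-1, against 3.14, 2.68 and 2.69 in wild-type. These tiles showed no steady climb on either array. At 1528 and 2128 bp they were 2.38 and 1.49 in sap1-1, against 3.49 and 2.83 in wild-type. At 3628 and 4528 bp they were 1.48 and 0.58 in sap1-1, against 2.32 and 1.48 in wild-type. The highest right tile on both arrays was that at 1528 bp, close to the crest of the left copy. The incomplete innermost right spacer had 2 more tiles, at 3998 and 4598 bp, with 1.27 and -0.02 in sap1-1, against 2.24 and 0.79 in wild-type.

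The highest left ratios were at 4800 (3.25), 3300 (2.76) and 5100 (2.56) in sap1-1, and at 4500 (3.54), 4800 (3.49) and 5100 (3.42) in wild-type. The highest right ratios were at 2449500 (2.38), 2448900 (2.33) and 2448300 (2.18) in sap1-1, and at 2449500 (3.49), 2448300 (3.14) and 2450100 (2.83) in wild-type. All of them lie in the spacer, within 3000 bp of the 28S end.

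Within the genes the ratio was lowest in the middle of 28S. The lowest left tiles in sap1-1 were 7800 in 28S (-2.49), 10500 in 18S (-2.23) and 8400 in 28S (-2.12). In wild-type the lowest left tiles, all in 28S, were 7800 (-1.66), 7500 (-1.23) and 8400 (-1.16). At the right end the lowest tile on both arrays was 2445900 in 28S, with -2.17 in sap1-1 and -1.19 in wild-type. Next there came 2445300 in 28S and 2443500 in 18S, with -1.84 and -1.83 in sap1-1, against -0.86 at both in wild-type. The tiles near the 3′ end of 28S already had higher ratios: tiles 6000, 16800 and 2447700 had -0.04, 0.31 and 0.23 in sap1-1, against 0.70, 0.90 and 1.14 in wild-type. Likewise the tiles nearest the 18S start, 12000 and 22800, had -0.57 and -0.36 in sap1-1, against 0.47 and 0.63 in wild-type, and stood above the rest of 18S at the left end on each array.

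The BrdU ratio of the rDNA was lower in sap1-1 at nearly every position of the repeat. The median difference over the 77 members was -0.94 (SD over tiles 0.33), against -0.12 over all chromosome tiles (SD over tiles 0.96, first quartile -0.72). The members repeat the same sequences, so the 2 SDs describe unlike sets. The ratio was lower in sap1-1 at 76 of 77 members, beside 55.8% of all chromosome tiles. It was lower by 1 or more at 28 of 77 members, beside 17.1% of all chromosome tiles. It was higher by 1 or more at 0 members, beside 4235 of the 41240 chromosome tiles. Spacer tiles had a median difference of -0.86 (-1.44 to -0.25), 18S tiles of -1.09 (-1.41 to -0.94) and 28S tiles of -0.96 (-1.36 to -0.59). Of the 28 tiles past 1, 18 were among the 35 tiles of 18S and 28S and 10 among the 33 spacer tiles. The 7 tiles of 5.8S and the internal spacers differed less, with a median of -0.39 (-0.95 to 0.13).

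The single tile with the widest gap was 4500, in the spacer 1382 bp after 28S. Its Cy5 signal was 51552 in sap1-1 and 68404 in wild-type, and its Cy3 signal was 12387 in sap1-1 and 6648 in wild-type. The ratio was therefore 2.10 in sap1-1 and 3.54 in wild-type, a difference of -1.44. Its Cy5 was lower in sap1-1 by 0.34 on the log2 scale, and its input was higher by 1.11. Next at the left end came tile 0 in 18S (ratio -1.85 in sap1-1 and -0.44 in wild-type, difference -1.41), then tile 3900 in the spacer (1.66 in sap1-1 and 3.07 in wild-type, difference -1.41). At the right end the widest gaps were at 2442900 in 18S (-1.41), 2450100 in the spacer (-1.34) and 2453700 in 18S (-1.28).

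The smallest gaps at the left end lay in 5.8S and the internal transcribed spacers. Tile 21000 was the only member that was higher in sap1-1, with ratios of 1.43 in sap1-1 and 1.30 in wild-type (difference 0.13). Tiles 9900 and 20700 differed by -0.06 and -0.11. At the right end the smallest gaps were in the spacer, at 2448900 (-0.36) and 2448600 (-0.71), followed by 2441700 (-0.81). Tile 2448900 lies 928 bp after 28S. The left tiles nearest to it in the repeat differed by -0.46 (15900, 852 bp), -0.86 (5100, 782 bp) and -0.25 (4800, 1082 bp).

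The input channel did not stay level between the strains within the repeat. Members had a median Cy3 of 3.76 in sap1-1 and 3.28 in wild-type, and the median difference per tile was 0.30, against -0.01 over all chromosome tiles. In the spacer the medians were 2.93 in sap1-1 and 2.46 in wild-type, with a median difference of 0.55 (-0.12 to 1.11). In 18S and 28S the medians were 4.97 in sap1-1 and 4.68 in wild-type, with a median difference of 0.28 (-0.03 to 0.50). In 5.8S and the internal spacers the median difference was -0.02. Cy3 was higher in sap1-1 by 0.5 or more at 20 members, all of them among the 33 spacer tiles, beside 1.58% of all chromosome tiles. That mark of 0.5 was chosen after the values had been seen. The shift in Cy3 was thus unequal over the parts of the repeat unit, and its cause was not tested. Input DNA counts both the number of repeats and DNA already replicated, and the strains also differ in array and culture. These cannot be told apart in these arrays.

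The excess of input in sap1-1 was greatest within the spacer and faded towards both genes. In the first 1000 bp after 28S the median Cy3 difference was 0.55 (9 tiles), from 1000 to 2000 bp it was 0.89 (5 tiles), and from 2000 to 3000 bp 0.79 (6 tiles). From 3000 to 4000 bp it was 0.53 (5 tiles), and from 4000 to 4700 bp it was 0.10 (8 tiles). All 11 tiles between 1000 and 3000 bp were higher in sap1-1 by 0.59 or more. Tile 4500 had a Cy3 of 3.76 in sap1-1 and 2.66 in wild-type (difference 1.11), and the right tile 2449500 had 2.93 in sap1-1 and 2.05 in wild-type (difference 0.88). After the GC fit the difference was 0.55 in the spacer and 0.28 in the genes. The GC fit thus left these differences nearly as they were.

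Values of 2 other sets of tiles are given beside the members. The 2326 arm tiles whose ratio averaged 2 or more over both arrays had a median Cy3 difference of -0.01 and a median ratio difference of -0.08. Their input was dim, with a median Cy3 of -0.64 in sap1-1 and -0.59 in wild-type. The 137 other tiles with Cy3 of 3 or more on both arrays had a median Cy3 difference of 0.03 and a median ratio difference of -0.18. Of these, 107 had a lower ratio in sap1-1, beside 55.8% of all chromosome tiles. Their median ratio was -0.17 in sap1-1 and 0.105 in wild-type, so neither set as a whole joined a high ratio with a bright input. These sets are descriptions and were picked by the same 2 arrays. Whether bright spots respond less than linearly was not tested.

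The lower ratio was made up differently in the genes and in the spacer. In 18S and 28S, Cy5 alone was lower in sap1-1 by a median of 0.83 on the log2 scale (difference -0.83, -1.16 to -0.24), and by 0.5 or more at 33 of 35 tiles. In the spacer the median Cy5 difference was -0.39 (-0.93 to 0.42), with 11 of 33 tiles lower by 0.5 or more. Among all chromosome tiles 32.9% were lower by 0.5 or more, so the spacer count was near that share. The median Cy5 difference over all chromosome tiles was -0.14. Along the spacer the Cy5 difference was -0.18, -0.23, -0.28, -0.39 and -0.60 in the 5 successive stretches from 28S to 18S. So from 1000 to 3000 bp after 28S most of the ratio difference (-1.11 and -1.10 in the 2 stretches) was in the input, and in the genes most of it was in the BrdU channel. After the GC fit the Cy5 difference was -0.48 in the spacer and -0.74 in the genes.

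The input levels themselves varied with position in both strains. At the left end Cy3 was highest in 28S, at tiles 17700, 8100 and 7500, which had 5.76, 5.74 and 5.42 in sap1-1, against 5.27, 5.44 and 5.45 in wild-type. At the right end tile 2445900 in 28S was highest, with 5.46 in sap1-1 and 5.38 in wild-type, followed by 2453700 in 18S with 5.37 in sap1-1 and 5.09 in wild-type. Next came 2442900 in 18S in sap1-1 (5.21) and 2445300 in 28S in wild-type (5.01). The lowest left members were 21000 in the internal spacer and the 2 tiles outside the assembly's repeat, 24900 and 24600, which had 0.28, 0.85 and 1.18 in sap1-1, against 0.41, 0.67 and 0.72 in wild-type. The lowest right members on both arrays were 2448900 and 2451600 in the spacer, with 1.57 and 2.08 in sap1-1, against 0.79 and 1.46 in wild-type. They were followed by 2441700 in sap1-1 (2.65) and by 2449500 in wild-type (2.05). Levels of different tiles differ with probe sequence as well as with copy number, so the order of tiles within an array describes the spots and is no measure of copy number.

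Tiles named for the left end and tiles named for the right end gave nearly the same strain difference. Each spot reads every repeat copy that matches its probe, whichever end the copy lies at. The likeness of left and right tiles therefore cannot show whether the chromosome ends behave alike. The median difference in ratio was -0.87 at the left end (59 tiles) and -0.96 at the right (18 tiles). In the spacer it was -0.85 at the left (24 tiles) and -0.90 at the right (9 tiles), and in 18S and 28S it was -1.04 at the left (27 tiles) and -0.98 at the right (8 tiles). The median Cy3 difference was 0.29 at the left and 0.30 at the right. Lower ratios by 1 or more were found at 24 of 59 left tiles and at 4 of 18 right tiles, beside the 17.1% of all chromosome tiles.

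Tiles at nearly the same place of the repeat, within 150 bp, were set against each other to show how far neighbouring probes of the repeat differ. Paired tiles were 7 to 147 bp apart, so they are different probes, and their gaps are not gaps between copies. Over 33 pairs of a right and a left tile the strain difference was -0.05 at the median for right minus left, and the median absolute gap was 0.13. Over 23 pairs of 2 left tiles the median absolute gap was 0.13 as well. The gaps of right and left tiles were thus about as small at the median as those of 2 left tiles. They ranged from -0.56 to 0.50 for right minus left, and from -0.28 to 0.75 for 2 left tiles. All come from the same 2 arrays, so they give no measure of the error of the strain difference. Ratios within 1 array varied more from probe to probe, with median absolute gaps between paired left tiles of 0.24 in sap1-1 and 0.26 in wild-type. The widest pair in sap1-1 was 10200 and 21000 in the internal spacer, 70 bp apart in the repeat: tile 10200 had -1.45 in sap1-1 and -0.83 in wild-type, and tile 21000 had 1.43 in sap1-1 and 1.30 in wild-type. The widest pair in wild-type was 16500 and 2448300, 77 bp apart in the spacer next to 28S: tile 16500 had 0.27 in sap1-1 and 0.77 in wild-type, and tile 2448300 had 2.18 in sap1-1 and 3.14 in wild-type.

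At the left limit of the rDNA the strain difference in ratio changed little from tile to tile. The last 3 left members, 23400, 24600 and 24900, differed by -0.62, -0.42 and -0.52 between the strains, and the first 3 tiles outside, 25500, 25800 and 26700, by -0.45, -0.39 and -0.34. Cy3 dropped across the same tiles, at 1.90, 1.18 and 0.85 inside and 0.29, -0.94 and -0.33 outside in sap1-1, against 1.88, 0.72 and 0.67 inside and 0.16, -1.02 and -0.27 outside in wild-type. At the right end the 3 tiles just outside, 2440200, 2440500 and 2440800, differed by -0.55, -1.0 and -0.75, and the 3 members just inside, 2441100, 2441700 and 2442000, by -0.97, -0.81 and -0.95. By the placement used here, 2440500 and 2440800 lie in repeat sequence, 3398 and 3698 bp after a 28S end, although they are no members. Their Cy3 was 3.50 and 1.88 in sap1-1, against 2.85 and 1.29 in wild-type, differences of 0.65 and 0.59 that are close to those of spacer members at the same distance. With the nearest tiles included, the 45 tiles from 25500 to 39900 had a median ratio difference of -0.31. The 34 tiles up to 2440800 outside the right limit, 2440500 and 2440800 among them, had one of -0.17.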

How the data were processed

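Two-colour arrays of 2 samples were used, 1 for sap1-1 and 1 for wild-type, both on 1 slide. The deposited intensity values come from version 10.7.3.1 of Agilent's Feature Extraction, per the file headers, with background subtraction, spatial detrending and 1 linear dye factor per channel; its deposited log10 ratio of Cy5 over Cy3 equals that of the processed signals to within 3.91e-07. Arrays state no depth, and their number (1 per strain) limits the precision: no SD between replicates and no test can be given.

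Of 41551 non-control probes, 12 flagged on either array were left out, none of them a member. The log2 ratio and the log2 of each channel were centred on the array median of 41240 chromosome tiles. Repeat positions came from the ASM294v3 annotation, after the tile numbering had been placed by GC content; the step was tested on simulated data. The GC fit was a lowess curve (share 0.3).

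Named tiles are, at each end, the 3 highest and 3 lowest by difference, by ratio and by Cy3 on each array, the 3 on either side of each limit, and all spacer tiles. The members, lists and marks were chosen with earlier results of these data known. Alternatives covered centring, background correction, channel scaling, GC and placement (limma 3.58.1 for normexp, offset 50). The files hold no mean spot signal, so median spot signals were used there in place of the planned mean signals.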

Additional observations from a re-analysis of the deposited data

How the results depend on the processing

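No paired analysis was possible because each strain has 1 array. A value was counted as moved where it changed by more than the SD over member tiles of the strain difference in ratio (0.33), and a count where it changed by over 1.5 times. The rDNA ratio stayed lower in sap1-1 in all alternatives run, and the Cy3 difference in the spacer stayed between 0.52 and 0.58.

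The size of the ratio difference depended on scaling. Centring on the mode moved the median of all tiles to -0.66, that of the members to -1.48, of the spacer to -1.39, of 18S and 28S to -1.58 and the Cy5 difference of 18S and 28S to -1.17, and 69 members were then lower by 1 or more, beside 35% of all chromosome tiles. Centring subtracts 1 constant for each array, so it shifts all differences alike and cannot change the gap of the members to the median of all tiles. Within-array loess gave -0.61 for the members, -0.64 for 18S and 28S, 6 tiles past 1 (10.1% of all tiles) and a step from genes to spacer of 3.24 in wild-type. It also turned the members' own median ratio to -1.19 in sap1-1 and -0.86 in wild-type. Over the mean input of both arrays the members' difference was -0.59, the spacer's -0.37, and 3 of 77 members passed 1, beside 16.2% of all tiles. Cy5 alone gave -0.60, -0.39 and 4 tiles, beside 16.6% of all tiles, with steps of 1.36 in sap1-1 and 0.66 in wild-type. Both settings remove the strain difference in input by construction, and in both the members passed 1 less often than all tiles. The GC fit, added for the ratio after the data had been seen, lowered the steps to 1.97 in sap1-1 and 1.84 in wild-type and turned the sap1-1 median ratio to -0.17. Normexp on median spot signals, also added then, turned it to -0.085. The left-to-right gap of 0.09 lay between 0.01 and 0.13. For loess and normexp the cause was not tested. Normexp on mean signals was not run.

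With 1 array for each strain, array, culture and strain cannot be told apart. The Cy3 and ratio values share the same Cy3 spot, so an error in 1 input spot enters both. Tile windows are placed to about 100 bp, and the place of each probe within its window is not known. Under the offsets of the rDNA tiles alone, 3 tiles change their feature.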
